A study of Mus musculus with 6 samples.

Results

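This account describes 10 genes of the p53 and DNA damage response in the hypothalamus of mice in which floxed Trsp was combined with 1 of 2 insulin-gene Cre drivers. The 10 genes (Trp53, Mdm2, Cdkn1a, Ccng1, Gadd45a, Gadd45b, Bax, Bbc3, Sesn1 and Sesn2) form a pathway and were found through the transcript each array probe is assigned to. They are represented by 11 of the 39429 probes on the array, and all 10 were among the 22863 genes tested. Trsp encodes the transfer RNA that delivers selenocysteine to selenoproteins, a group that includes peroxide-removing enzymes, and the submitters describe its conditional loss as raising oxidative stress. The comparison therefore addresses whether transcripts of the DNA damage response differ in this tissue.

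There were 3 groups of 2 arrays each, all from male C57BL/6J mice aged 16 weeks. Trsp-RIPKO mice carried TrspFlox/Flox together with RIP-Cre, in which the rat insulin promoter drives the recombinase; this promoter is known to be active in some hypothalamic neurons as well as in pancreatic beta cells. Trsp-Ins1KO mice carried TrspFlox/Flox with Ins1-Cre, a driver built on an insulin gene. TrspFF mice carried the floxed alleles without Cre, so the control group shares the floxed alleles with both knockouts and there was no group with Cre alone. The tissue was whole hypothalamus, in which any cells that express Cre would be a minority, and fewer cells of a type cannot be told apart from less RNA per cell. Whether either driver removed Trsp from cells of this tissue was not measured. The labels number the arrays of a genotype without saying whether each came from a separate animal, so the spread that p-values measure is that between arrays and could be purely technical.

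p53, encoded by Trp53, is a transcription factor that is stabilised when ATM and related kinases sense damaged DNA or when cells are stressed in other ways. Most of its control is at the level of the protein: Mdm2 is a ubiquitin ligase that marks p53 for destruction and is itself induced by p53, which closes a feedback loop. Its targets halt the cell cycle, help repair DNA, restrain growth signalling and oxidative damage, or, with stronger activation, permeabilise mitochondria and start apoptosis. p53 binds DNA as a tetramer at a pair of decameric half-sites.

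The p53 half-site consensus was looked for in the RefSeq promoter windows of the genes, which run from 250 bases before to 50 bases after an annotated start (build GRCm38.p6). All 10 genes had a window and 14 windows were found in all. The half-site, allowing no mismatch, was present in 7 of the 14 windows, belonging to 7 of the 10 genes, and in 8.36% of the 32851 windows of this length in the genome. Gadd45b, Bbc3 and Sesn2 had none in their windows. Sequence outside the windows was not searched, so a missing match does not mean that the gene lacks a p53 site. The matches are shown with 10 bases on either side, in the direction of transcription, since the half-site is the element that p53 recognises; capitals mark the match and positions count from the start of transcription.

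Trp53 (bases -75 to -66): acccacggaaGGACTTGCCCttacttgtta
Mdm2 (bases -186 to -177): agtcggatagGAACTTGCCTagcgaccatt
Cdkn1a (bases -73 to -64): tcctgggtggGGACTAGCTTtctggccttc
Cdkn1a (bases -51 to -42): tggccttcagGAACATGTCTtgacatgttc
Ccng1 (bases -185 to -176): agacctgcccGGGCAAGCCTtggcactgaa
Gadd45a (bases -40 to -31): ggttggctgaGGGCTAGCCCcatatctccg
Bax (bases -201 to -192): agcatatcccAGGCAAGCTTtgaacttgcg
Sesn1 (bases -173 to -164): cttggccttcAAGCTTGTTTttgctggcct

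These stretches lie for Trp53 at chr11:69580274-69580303 (plus strand), Mdm2 at chr10:117710925-117710954 (minus strand), Cdkn1a at chr17:29090896-29090925 (plus strand), Cdkn1a at chr17:29090918-29090947 (plus strand), Ccng1 at chr11:40755452-40755481 (minus strand), Gadd45a at chr6:67037428-67037457 (minus strand), Bax at chr7:45467080-45467109 (minus strand), Sesn1 at chr10:41887256-41887285 (plus strand). The Sesn1 match is in the window of its second annotated start, and both Cdkn1a matches are in the window of its first. The other motifs searched, also on both strands, are given whatever they showed. The GC box (GGGCGG) was found for 8 of the 10 genes against 35.7% of all windows, the FoxO site (GTAAACA) for 3 against 3.65%, the CRE half-site (TGACG) for 3 against 20.8%, the TATA box (TATAAA) for 2 against 13.6% and the full CRE (TGACGTCA) for 0 against 1.79%. The CRE half-site lies within the full CRE, and some GC boxes overlap one another. Shares of genes and of windows are not the same measure, since a gene can have several windows. A match describes the letters of a window and not a bound site, and most of the genes are known p53 targets that were chosen as such.

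The arrays were alike in overall signal. The 75th percentile of the processed signal lay between 1387 and 2136 units over the 6 arrays, 68.9% to 72.0% of probes were well above background and 0 spots were saturated. The level of a gene is its processed signal relative to the 75th percentile of the same array, on the log2 scale, so 0 is that percentile, and levels are compared only between arrays for the same probe. Of 14 markers that define the hypothalamus, 12 were tested and 11 were well above background on all 6 arrays. Ghrh and Otp were on the array but were not among the genes tested. The pair of TrspFF arrays came from 1 slide and scan, and the 4 knockout arrays from a different slide and scan, so slide and genotype cannot be told apart in any comparison with TrspFF; Trsp-RIPKO against Trsp-Ins1KO lies within 1 slide. No probe is named for Trsp, so its deletion was not checked. The names of the knockouts in the deposited value table are exchanged relative to the scanner files: each knockout column matched the array of the other knockout (r = 0.999999 for each) and not its own. The names used here are those of the scanner files, and the mean of both knockouts against TrspFF does not depend on them.

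No gene of the 10 passed the test in any comparison. With limma and Benjamini-Hochberg adjustment over all 22863 genes at 0.05, 0 of 10 were called in Trsp-RIPKO against TrspFF, where 1.67% of all genes were called, and 0 of 10 in Trsp-Ins1KO against TrspFF, where 1.81% were. The count was also 0 of 10 in Trsp-RIPKO against Trsp-Ins1KO, where 0.0175% of all genes were called, and 0 of 10 for both knockouts against TrspFF, where 3.74% were. At an unadjusted p under 0.05 the counts were 2 of 10 (Trp53 and Bbc3) in Trsp-RIPKO against TrspFF, against 24% of all genes, and 0 of 10 in Trsp-Ins1KO against TrspFF, against 25.9%. They were 2 of 10 (Gadd45a and Gadd45b) in Trsp-RIPKO against Trsp-Ins1KO, against 18.6%, and 2 of 10 (Trp53 and Bbc3) for both knockouts against TrspFF, against 26%. The shares among the 10 genes were near or below those among all genes. An exact permutation test of 2 arrays against 2 cannot give a two-sided p below 0.333.

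**Figure D1:**
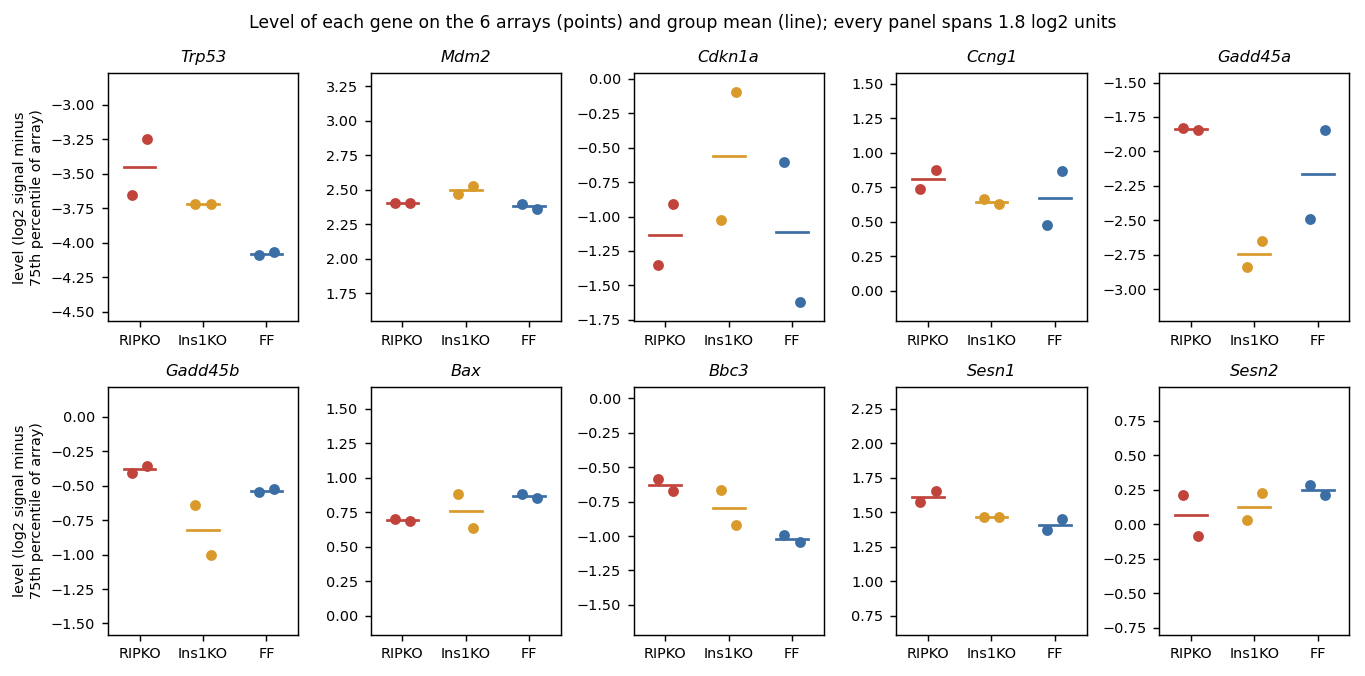
Level of each of the 10 genes (log2 processed signal minus the 75th percentile of the array) on every array, with points for arrays and lines for group means, in the order Trsp-RIPKO, Trsp-Ins1KO and TrspFF; every panel spans the same 1.8 log2 units. Trp53 and Bbc3 lie above TrspFF on all 4 knockout arrays, Gadd45a and Gadd45b are among the 6 genes whose knockout arrays do not overlap each other, and Cdkn1a is spread over 1.52 log2 units with no order by genotype.

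Trp53, the gene for p53 itself, was at -3.65 and -3.25 in Trsp-RIPKO hypothalamus, -3.72 and -3.72 in Trsp-Ins1KO and -4.09 and -4.07 in TrspFF. All 4 knockout arrays were above both TrspFF arrays, and the TrspFF arrays had an SD of 0.0163 (n = 2). The difference between Trsp-RIPKO and TrspFF was 0.63 ± 0.15 (log2, moderated SE; 1.55-fold) and did not pass (limma adjusted p = 0.109). Trsp-Ins1KO minus TrspFF was 0.36 ± 0.15 (limma adjusted p = 0.211). For both knockouts against TrspFF it was 0.50 ± 0.13, with a 95% interval of 0.16 to 0.83 (limma adjusted p = 0.104). Its probe had a processed signal of 147 and 225 units in Trsp-RIPKO, 132 and 146 in Trsp-Ins1KO and 81.3 and 102 in TrspFF, well above background on all 6 arrays. Without Trsp-RIPKO replicate 2, the highest array, the difference from TrspFF was 0.43. Markers of the striatum, a region near the hypothalamus, also set all 4 knockout arrays apart from TrspFF: the mean of 9 markers was -0.98 and -1.01 in Trsp-RIPKO, -1.12 and -1.02 in Trsp-Ins1KO and -0.38 and 0.04 in TrspFF. All 9 were lower in both knockouts than in TrspFF on average, 8 at an unadjusted p under 0.05 (26% of all tested genes), and 2 passed (3.74% of all tested genes, limma). The mean of 5 tested markers of dividing cells was -3.46 and -3.46 in Trsp-RIPKO, -3.40 and -3.61 in Trsp-Ins1KO and -3.18 and -3.23 in TrspFF. Of these 5, 3 were lower and 2 higher in both knockouts against TrspFF, and 0 passed. The part of tissue makeup in the Trp53 difference, and in that of Bbc3 given later, was not tested.

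Mdm2, the ligase that degrades p53, varied least. It was at 2.41 and 2.41 in Trsp-RIPKO, 2.47 and 2.53 in Trsp-Ins1KO and 2.40 and 2.36 in TrspFF, a range of 0.17 over all arrays. Trsp-RIPKO minus TrspFF was 0.03 with a 95% interval of -0.18 to 0.23, and Trsp-Ins1KO minus TrspFF was 0.12 with an interval of -0.08 to 0.33. All 4 knockout arrays were above both TrspFF arrays, but the 2.41 of the Trsp-RIPKO arrays lay within 0.03 of the TrspFF mean.

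**Figure D2:**
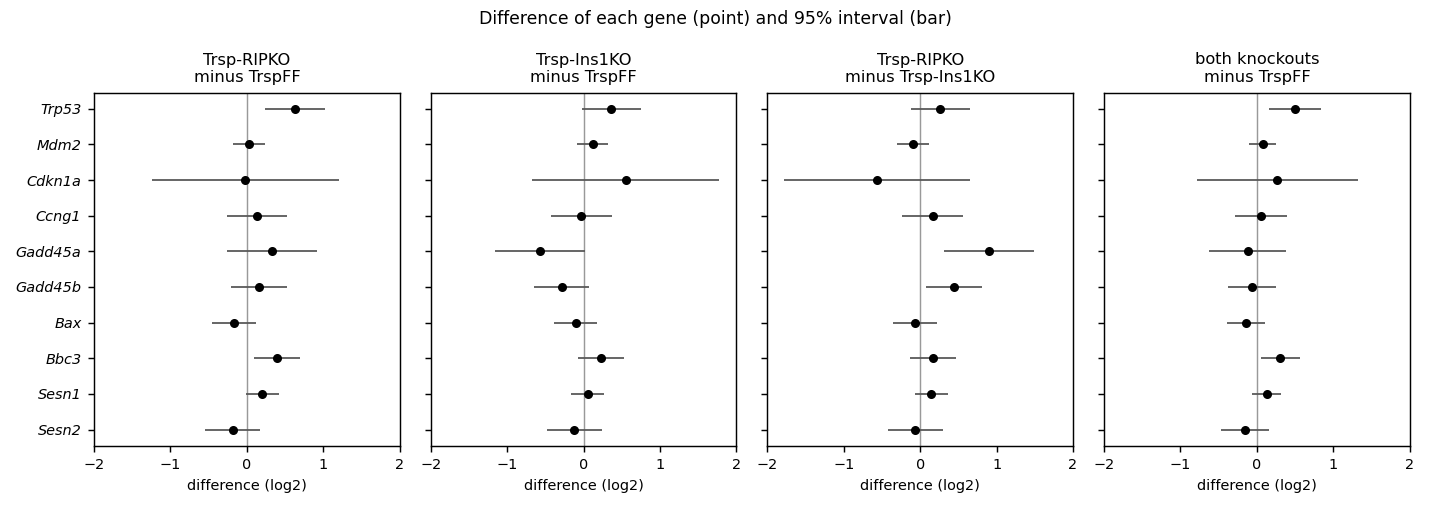
Difference in level (log2, group named above minus group named below in each panel title) of the 10 genes with its 95% interval from limma. The intervals of Trp53 and Bbc3 lie above 0 in Trsp-RIPKO minus TrspFF and in both knockouts minus TrspFF, those of Gadd45a and Gadd45b lie above 0 in Trsp-RIPKO minus Trsp-Ins1KO, and no difference passed after adjustment.

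Cdkn1a encodes the p21 inhibitor of cyclin-dependent kinases and is the classic p53 target in cell cycle arrest. Its level was -1.35 and -0.91 in Trsp-RIPKO, -1.03 and -0.10 in Trsp-Ins1KO and -0.60 and -1.62 in TrspFF. The highest array was from Trsp-Ins1KO, the lowest and the next to highest were both TrspFF, and the groups overlapped in all comparisons. Its range of 1.52 was the widest of the 10 genes, whose median range was 0.43, against 0.51 over all tested genes. Trsp-RIPKO minus TrspFF was -0.02 ± 0.47 and Trsp-Ins1KO minus TrspFF was 0.55 ± 0.47 (limma adjusted p = 0.983 and 0.487). The 95% interval of Trsp-RIPKO minus TrspFF ran from -1.24 to 1.20, so it does not exclude a 2-fold difference of Cdkn1a either way.

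The array carries the detected Cdkn1a probe in 10 spots, which gives a direct view of measurement error within an array. The SD between the 9 or 10 unflagged spots was 0.0232 to 0.0569 on the 6 arrays. Neighbouring arrays in the order of levels, Trsp-RIPKO replicate 2 and Trsp-Ins1KO replicate 1, had spots from -0.99 to -0.84 and from -1.07 to -0.97, and these overlapped. Apart from that pair, the array averages differed by far more than the spots did, within TrspFF as well as between groups. A second Cdkn1a probe, assigned to another transcript, had signal close to background on every array (not well above it on 6 of 6) and was not tested.

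**Figure D3:**
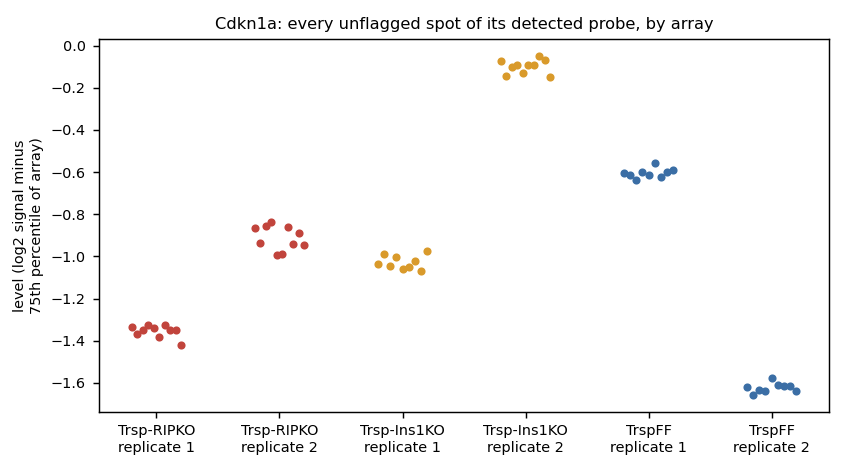
Level (log2 signal minus the 75th percentile of the array) of every unflagged spot of the detected Cdkn1a probe, 9 or 10 per array, by genotype and replicate. Spots of an array lie close together, while the arrays lie between -0.10 in Trsp-Ins1KO replicate 2 and -1.62 in TrspFF replicate 2, and the arrays of a genotype lie apart.

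Trsp-Ins1KO replicate 2, with the highest Cdkn1a level, also differed from the other arrays in markers of tissue next to the hypothalamus. The mean level of 12 choroid plexus markers was -2.85 on it and lay between -0.22 and 0.64 on the other 5 arrays. Ttr, the transthyretin gene that defines that tissue, was at -0.95 there, against 5.39 on Trsp-Ins1KO replicate 1 and 5.57 to 6.32 on the arrays of the other groups. The means of 10 markers of cortex and hippocampus (-2.64) and of 9 markers of meninges and fibroblasts (-2.26) were likewise lowest on it. Whether tissue makeup has a part in the Cdkn1a level was not tested. Without this array Trsp-Ins1KO minus TrspFF was 0.09 for Cdkn1a.

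Ccng1, which encodes cyclin G1, a p53 target that acts with a phosphatase on Mdm2, was at 0.74 and 0.87 in Trsp-RIPKO, 0.66 and 0.63 in Trsp-Ins1KO and 0.48 and 0.87 in TrspFF. The TrspFF arrays enclosed all but 1 knockout array, and the differences from TrspFF were 0.13 ± 0.15 and -0.03 ± 0.15 (limma adjusted p = 0.621 and 0.919). Trsp-RIPKO minus Trsp-Ins1KO was 0.16 ± 0.15, with no overlap between the knockouts.

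The Gadd45 genes encode small stress sensors that bind cyclin B kinase, PCNA and the MTK1 kinase; Gadd45a is a p53 target, and Gadd45b is also induced by neuronal activity. They were the 2 of the 10 genes with an unadjusted p under 0.05 between the knockouts, and neither passed the test. The 250 bases before each start are shown because these promoters differ in the motifs searched: the Gadd45a promoter holds a p53 half-site and the Gadd45b promoter holds a TATA box and no half-site. Capitals mark every match to a searched motif, including a GC box in each, on either strand.

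Gadd45a, chr6:67037408-67037657, minus strand: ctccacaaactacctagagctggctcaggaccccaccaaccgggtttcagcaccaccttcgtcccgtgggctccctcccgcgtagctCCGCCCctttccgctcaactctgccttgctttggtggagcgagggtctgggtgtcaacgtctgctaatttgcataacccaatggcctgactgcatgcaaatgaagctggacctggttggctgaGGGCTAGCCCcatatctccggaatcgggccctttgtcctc
Gadd45b, chr10:80929841-80930090, plus strand: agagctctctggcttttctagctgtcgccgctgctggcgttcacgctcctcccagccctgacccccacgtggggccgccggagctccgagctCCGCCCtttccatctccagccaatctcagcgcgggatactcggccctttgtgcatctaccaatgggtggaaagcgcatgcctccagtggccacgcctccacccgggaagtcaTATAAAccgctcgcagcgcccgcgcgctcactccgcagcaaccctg

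Gadd45a was at -1.83 and -1.84 in Trsp-RIPKO, -2.84 and -2.65 in Trsp-Ins1KO and -2.49 and -1.85 in TrspFF. Both Trsp-RIPKO arrays lay at the level of TrspFF replicate 2, and both Trsp-Ins1KO arrays lay below all others. Trsp-RIPKO minus Trsp-Ins1KO was 0.90 ± 0.23 with a 95% interval of 0.32 to 1.49 (1.87-fold) and did not pass (limma adjusted p = 0.261). Trsp-RIPKO minus TrspFF was 0.33 ± 0.23 and Trsp-Ins1KO minus TrspFF was -0.57 ± 0.23 (limma adjusted p = 0.417 and 0.199). The first of these was 0.01 without TrspFF replicate 1 and 0.65 without TrspFF replicate 2.

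Gadd45b was at -0.41 and -0.36 in Trsp-RIPKO, -0.64 and -1.01 in Trsp-Ins1KO and -0.55 and -0.53 in TrspFF. The Trsp-RIPKO arrays were above all others and the Trsp-Ins1KO arrays below, with TrspFF between. Trsp-RIPKO minus Trsp-Ins1KO was 0.44 ± 0.14 with a 95% interval of 0.08 to 0.81 (1.36-fold), and it did not pass (limma adjusted p = 0.261). Trsp-RIPKO minus TrspFF was 0.16 ± 0.14 and Trsp-Ins1KO minus TrspFF was -0.29 ± 0.14 (limma adjusted p = 0.523 and 0.265). Trsp-RIPKO minus Trsp-Ins1KO was 0.26 when the lowest array, Trsp-Ins1KO replicate 2, was left out.

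Markers of several tissues and cell types were also higher in Trsp-RIPKO than in Trsp-Ins1KO. All 9 endothelial markers were higher on average in Trsp-RIPKO than in Trsp-Ins1KO, with array means of -0.70 and -0.65 in Trsp-RIPKO, -1.49 and -1.34 in Trsp-Ins1KO and -1.22 and -0.81 in TrspFF, and 0 of them passed. The same direction held on average for 9 of 9 oligodendrocyte markers, 9 of 9 markers of meninges and fibroblasts, 11 of 12 choroid plexus markers and 9 of 10 markers of cortex and hippocampus, and markers of the hypothalamus were lower in Trsp-RIPKO for 12 of 12, again with 0 called. Astrocyte and microglia markers were mostly lower in Trsp-RIPKO (5 of 7 and 6 of 8). Striatum markers were higher for 5 of 9 and markers of dividing cells for 4 of 5, also with 0 called. The part of cell or region makeup in the Gadd45a and Gadd45b values was not tested. If the knockout names of the value table were the right ones, these differences would carry the opposite sign.

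**Figure D4:**
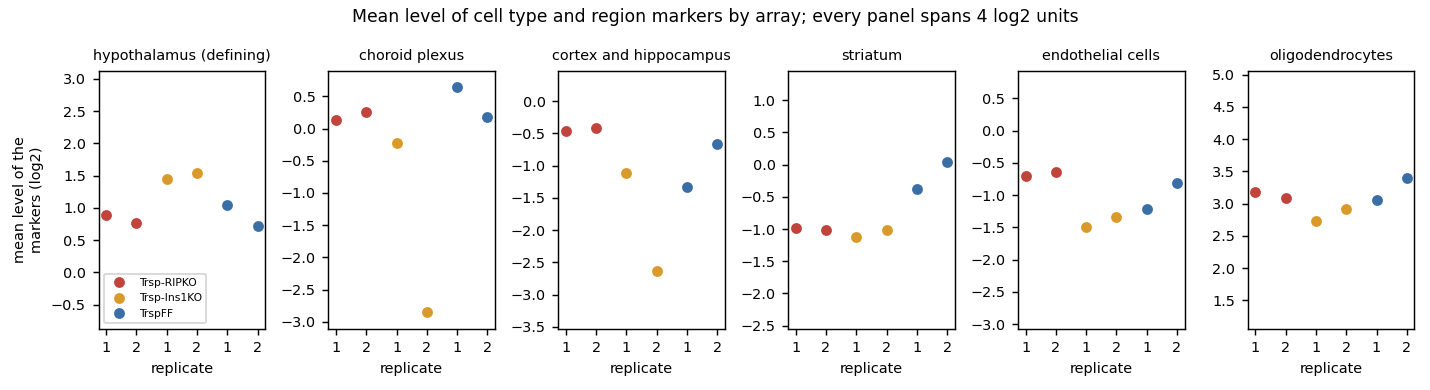
Mean level (log2) of markers of 6 tissues or cell types on each array, coloured by genotype, each panel spanning 4 log2 units. Trsp-Ins1KO replicate 2 stands apart in choroid plexus (-2.85) and in cortex and hippocampus (-2.64), and the endothelial means of both Trsp-RIPKO arrays (-0.70 and -0.65) lie above those of both Trsp-Ins1KO arrays (-1.49 and -1.34).

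Bax and Bbc3 act at mitochondria: Bax forms pores in the outer membrane, and Bbc3 encodes PUMA, a BH3-only protein that frees Bax-type proteins from their inhibitors. Bbc3 was at -0.59 and -0.67 in Trsp-RIPKO, -0.67 and -0.92 in Trsp-Ins1KO and -0.99 and -1.04 in TrspFF. All 4 knockout arrays were above both TrspFF arrays. Trsp-RIPKO minus TrspFF was 0.39 ± 0.12 (1.31-fold), Trsp-Ins1KO minus TrspFF was 0.22 ± 0.12 and both knockouts minus TrspFF was 0.31 ± 0.10, and none of these passed (limma adjusted p = 0.146, 0.283 and 0.148). Bax was at 0.70 and 0.68 in Trsp-RIPKO, 0.89 and 0.64 in Trsp-Ins1KO and 0.88 and 0.85 in TrspFF. The Trsp-RIPKO arrays were below both TrspFF arrays by a mean of 0.17 ± 0.11 (limma adjusted p = 0.387), while the Trsp-Ins1KO arrays lay on either side of TrspFF.

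Sestrins restrain the growth kinase complex mTORC1 and help regenerate oxidised peroxiredoxins; Sesn1 is induced mainly by p53 and Sesn2 also by other stresses. Sesn1 was at 1.57 and 1.65 in Trsp-RIPKO, 1.47 and 1.46 in Trsp-Ins1KO and 1.37 and 1.45 in TrspFF. The groups did not overlap in any comparison, and Trsp-RIPKO minus TrspFF was 0.20 ± 0.08 (limma adjusted p = 0.230) while Trsp-Ins1KO minus TrspFF was 0.06 ± 0.08 (limma adjusted p = 0.696). Sesn2 was at 0.21 and -0.09 in Trsp-RIPKO, 0.03 and 0.22 in Trsp-Ins1KO and 0.28 and 0.21 in TrspFF. Its Trsp-RIPKO replicate 1 (0.2121) lay only just below TrspFF replicate 2 (0.2134). Trsp-RIPKO minus TrspFF was -0.18 ± 0.14 and Trsp-Ins1KO minus TrspFF was -0.12 ± 0.14 for Sesn2 (limma adjusted p = 0.451 and 0.604).

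Groups of 2 arrays failed to overlap for most of the tested genes. Any gap counted, however small, and the gaps of Sesn2, Mdm2 and Gadd45a between Trsp-RIPKO and TrspFF were narrow. In Trsp-RIPKO against TrspFF, 6 of the 10 genes were higher on both knockout arrays and 2 lower, against 58.3% of all tested genes not overlapping in either direction. The counts were 4 and 2 in Trsp-Ins1KO against TrspFF (58.2% of all genes) and 5 and 1 in Trsp-RIPKO against Trsp-Ins1KO (58.6%). For both knockouts against TrspFF they were 4 higher (Trp53, Mdm2, Bbc3 and Sesn1) and 0 lower, against 34.2%. The median difference of the 10 genes was 0.14, 0.01, 0.15 and 0.06 in these comparisons in the order given, against -0.02, 0.02, -0.05 and 0.01 over all tested genes. Both comparisons with TrspFF use the same pair of control arrays.

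Other genes of the response were described by 6 lists with 113 genes, 104 of them tested, and some genes stand in several lists. None passed (limma, 0 of 104 in all 4 comparisons), with 17 at an unadjusted p under 0.05 in Trsp-RIPKO against TrspFF (16.3%), 14 in Trsp-Ins1KO against TrspFF (13.5%), 13 in Trsp-RIPKO against Trsp-Ins1KO (12.5%) and 19 for both knockouts against TrspFF (18.3%). Over all tested genes the shares at that cutoff were higher, at 24%, 25.9%, 18.6% and 26% in the same order. Among 15 tested regulators of p53, 7 differences were positive and 8 negative in Trsp-RIPKO against TrspFF, and 11 were positive in Trsp-Ins1KO against TrspFF. Trp53bp1, which recruits repair factors to broken DNA and binds p53, was at 1.27 and 1.34 in Trsp-RIPKO, 1.31 and 1.59 in Trsp-Ins1KO and 1.02 and 0.99 in TrspFF (both knockouts minus TrspFF 0.37, limma adjusted p = 0.113). In the same comparison Trp73, a relative of p53, differed by -0.37 (limma adjusted p = 0.138). Kat5, an acetylase that acts on p53, differed by 0.20 and Usp7, which removes ubiquitin from p53 and Mdm2, by 0.19 (limma adjusted p = 0.212 and 0.193).

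Among 30 other tested p53 targets, 17 differences were positive in Trsp-RIPKO against TrspFF and 15 in Trsp-Ins1KO against TrspFF, with list medians of 0.05 and 0.01. Targets that act in repair lay on both sides of TrspFF. Xpc, which recognises damage for nucleotide excision repair, was at -0.24 and -0.16 in Trsp-RIPKO, -0.21 and -0.24 in Trsp-Ins1KO and -0.53 and -0.52 in TrspFF (both knockouts minus TrspFF 0.32, limma adjusted p = 0.0802). Rrm2b, the p53-induced subunit of ribonucleotide reductase, was at -3.43 and -3.42 in Trsp-RIPKO, -3.58 and -3.54 in Trsp-Ins1KO and -3.06 and -2.75 in TrspFF (-0.59, limma adjusted p = 0.0612). Ddb2, a partner of Xpc in damage recognition, differed by 0.35 and Tnfrsf10b, a death receptor, by -0.56 in both knockouts against TrspFF (limma adjusted p = 0.120 for each).

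Sensors and kinases of DNA damage (24 tested) had 14 positive differences in each comparison of a knockout with TrspFF. Nbn, a subunit of the complex that senses double-strand breaks, was at -2.43 and -2.42 in Trsp-RIPKO, -3.23 and -2.54 in Trsp-Ins1KO and -1.77 and -1.69 in TrspFF. All 4 knockout arrays were below TrspFF, and both knockouts minus TrspFF was -0.92 (limma adjusted p = 0.0789). Mdc1, a scaffold at broken DNA, differed by -0.32 in that comparison (limma adjusted p = 0.173). Repair of oxidised bases (15 tested) had 8 positive differences in Trsp-RIPKO and 9 in Trsp-Ins1KO, each against TrspFF. Neil1, a glycosylase that removes oxidised bases, was at -3.31 and -3.25 in Trsp-RIPKO, -3.56 and -3.60 in Trsp-Ins1KO and -3.70 and -3.74 in TrspFF, and Trsp-RIPKO minus TrspFF was 0.44 (limma adjusted p = 0.0764). Mutyh, the glycosylase for adenine opposite oxidised guanine, differed by 0.54 and Apex1, the endonuclease that follows it, by 0.21 in the same comparison (limma adjusted p = 0.0895 and 0.234). Xrcc1, the scaffold of that repair pathway, differed by 0.28 (limma adjusted p = 0.184). Polb, the gap-filling polymerase, was singled out after its values were seen: its single probe was at 0.38 and -8.71 in Trsp-RIPKO, 0.59 and 0.60 in Trsp-Ins1KO and 0.54 and 0.44 in TrspFF, so 1 array alone gives its difference of -4.65.

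In the Bcl-2 family and caspase list (18 tested) 8 differences were positive in Trsp-RIPKO against TrspFF and 10 in Trsp-Ins1KO against TrspFF. Bcl2, which restrains Bax, was at -1.08 and -1.15 in Trsp-RIPKO, -0.89 and -0.99 in Trsp-Ins1KO and -0.53 and -0.74 in TrspFF (both knockouts minus TrspFF -0.39, limma adjusted p = 0.0905). Bad, which binds Bcl2, differed by 0.29 and Cycs, which encodes cytochrome c, by 0.05 in the same comparison (limma adjusted p = 0.157 and 0.705). Bmf, a BH3-only relative of Bbc3, differed by 0.73 in Trsp-RIPKO against Trsp-Ins1KO (limma adjusted p = 0.261) and by 0.14 in both knockouts against TrspFF (limma adjusted p = 0.643). Among 17 tested relatives of the 10 genes, 7 and 8 differences were positive against TrspFF in Trsp-RIPKO and in Trsp-Ins1KO, with medians of -0.13 in both. Gadd45gip1, whose product binds the Gadd45 proteins, differed by 0.63 in both knockouts against TrspFF (limma adjusted p = 0.0745).

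Immediate early genes and glucocorticoid targets were listed as genes that other stimuli induce. The lists are not free of damage response genes, since Btg2 and Ddit4 also stand in the list of other p53 targets. Of the 34 genes tested in these 2 further lists, 0 passed in any of the 4 comparisons (limma). At an unadjusted p under 0.05 there were 6 in Trsp-RIPKO against TrspFF (17.6%), 8 in Trsp-Ins1KO against TrspFF (23.5%), 5 in Trsp-RIPKO against Trsp-Ins1KO (14.7%) and 7 for both knockouts against TrspFF (20.6%). The shares over all tested genes were again higher, at 24%, 25.9%, 18.6% and 26% in the same order. Among 18 tested immediate early genes, 15 differences were positive in Trsp-RIPKO against TrspFF (median 0.29), 9 in Trsp-Ins1KO against TrspFF (median -0.03) and 14 in Trsp-RIPKO against Trsp-Ins1KO (median 0.38). Fos was at 0.70 and 0.92 in Trsp-RIPKO, 1.17 and 0.98 in Trsp-Ins1KO and 0.52 and 0.55 in TrspFF. Both knockouts minus TrspFF was 0.40 for Fos, 0.55 for Fosb, 0.23 for Atf3 and -0.24 for Klf4 (limma adjusted p = 0.101, 0.0944, 0.486 and 0.129), and between the knockouts Atf3 differed by -0.69. Glucocorticoid responsive genes (16 tested) had 6, 5 and 8 positive differences in these comparisons. Per1, a clock gene that glucocorticoids also induce, was at 3.19 and 3.14 in Trsp-RIPKO, 1.81 and 2.22 in Trsp-Ins1KO and 2.39 and 2.98 in TrspFF. Trsp-RIPKO minus Trsp-Ins1KO was 1.15 for Per1, 0.62 for Zbtb16, -0.04 for Fkbp5 and -0.24 for Mt1 (limma adjusted p = 0.261, 0.261, 0.834 and 0.273), so the named genes of this list did not share a direction. Fkbp5, which encodes a cochaperone of the glucocorticoid receptor, was at 0.10 and 0.06 in Trsp-RIPKO, 0.08 and 0.16 in Trsp-Ins1KO and 0.63 and 0.45 in TrspFF, and both knockouts minus TrspFF was -0.44 (limma adjusted p = 0.0664).

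**Figure D5:**
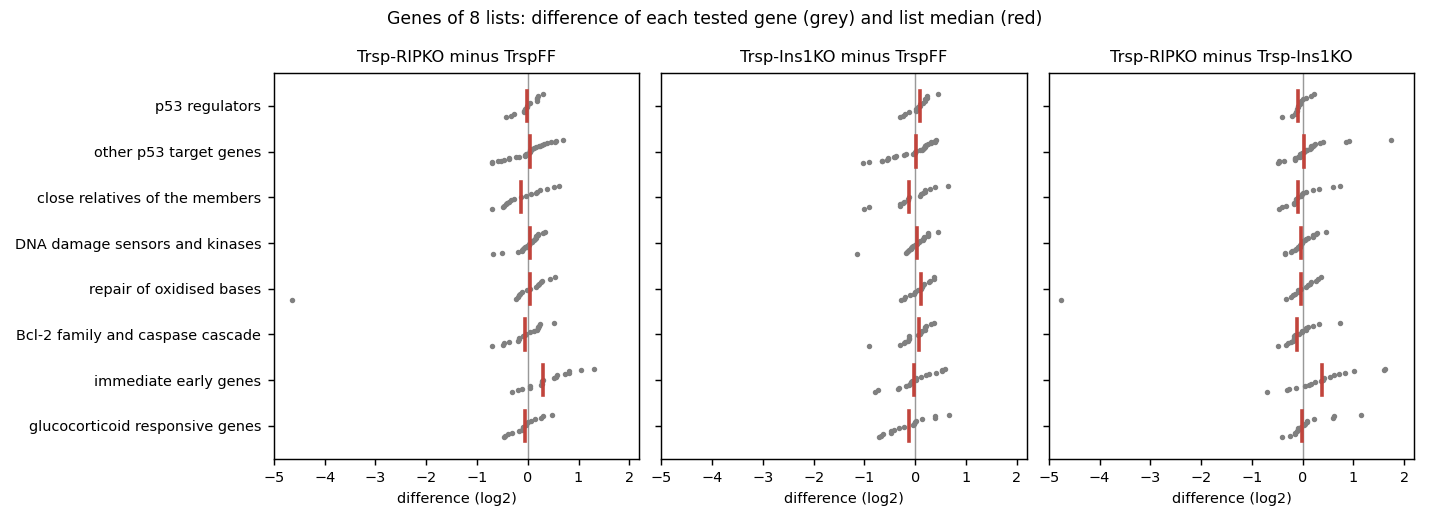
Difference in level (log2) of each tested gene in 8 lists (grey points) and the median of each list (red line), for Trsp-RIPKO minus TrspFF, Trsp-Ins1KO minus TrspFF and Trsp-RIPKO minus Trsp-Ins1KO. List medians lie near 0 except for immediate early genes (0.29 in Trsp-RIPKO minus TrspFF and 0.38 in Trsp-RIPKO minus Trsp-Ins1KO), and the point at -4.65 is Polb.

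Likeness across the 6 arrays was sought among 6943 genes with a range of at least 0.5 and a usual symbol. Genes named by an accession or a Gm or Rik name were left out. Those most like Trp53 were Tfdp1 (Pearson r = 0.993), Lgals9 (r = 0.992) and Gid4 (r = 0.987), and 219 of the 6943 had r above 0.9. Those most like Cdkn1a were Nkx6-1 (r = 0.987), Mmel1 (r = 0.986) and Hk3 (r = 0.984), with 63 of the 6943 above 0.9. These r describe 6 arrays that share slides by genotype and were picked as the highest of many, so they carry no test.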

How the data were processed

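Hypothalamic RNA was measured on 6 one-colour Cy3 arrays, 2 per genotype. Per the file headers, the authors deposited scanner files with the background-subtracted intensity of each spot, read with Agilent Feature Extraction 10.7.3.1. The deposited value table holds log2 values centred by probe; no source used here gives its scaling, and it served as an alternative. Unflagged spots of a probe were averaged, leaving out 118 of 39429 probes whose spots were all flagged on an array. The level is the log2 intensity minus the array's 75th percentile. Probes were kept (28065) if a whole group had them well above background, and the brightest stood for its gene. Symbols came from transcript accessions and RefSeq (66.1% of probes). All 6 arrays entered 1 fit in limma 3.58.1 (R 4.3.3, lmFit and eBayes, Benjamini-Hochberg over 22863 genes at 0.05). The fit was also run on simulated data with shifts of 2 or 4 log2 units. Shifts as small as the differences of the described genes were not simulated. ± is the moderated SE. Genes, lists and markers were chosen with earlier results of these data known, and the motifs after the values were seen. Named list genes are the 4 with the smallest p where none passed; 1 of them is not reported here. Alternatives were normexp, quantile and median scaling, the value table, filters, the mean of probes and eBayes with trend and robust estimation together. The last of these is called trend below. Further alternatives were a replicate block, fits of only the groups compared and leaving out each array.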

Additional observations from a re-analysis of the deposited data

Results flagged for a closer look

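For Gadd45a and Gadd45b, both Trsp-RIPKO arrays were above and both Trsp-Ins1KO arrays below both TrspFF arrays, although neither gene passed in either comparison with TrspFF. Groups did not overlap for 58.3% of all tested genes in Trsp-RIPKO against TrspFF and for 58.2% in Trsp-Ins1KO against TrspFF. These shares hold for each comparison alone and in either direction. The share of all genes with the knockouts on opposite sides of TrspFF was not counted. The difference between the knockouts, which is the test of this contrast, was 0.90 for Gadd45a and 0.44 for Gadd45b, and it did not pass for either (limma adjusted p = 0.261 for each). For Gadd45a the Trsp-RIPKO arrays (-1.83 and -1.84) barely exceeded TrspFF replicate 2 (-1.85).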

How the results depend on the processing

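The count of the 10 genes called was 0 under every alternative run. Of 630 differences of single genes recomputed under 16 alternatives, 555 moved by less than the gene's residual SD and 75 by more; none was called, so sign changes concern uncalled values. Leaving the value table's names aside, Trp53, Mdm2, Bbc3 and Sesn1 kept their sign in all comparisons, and Cdkn1a, Ccng1, Gadd45a, Gadd45b, Bax and Sesn2 changed sign in at least 1. With the value table's names the median of the 10 genes in Trsp-RIPKO against Trsp-Ins1KO was -0.16. The smallest adjusted p of Gadd45a was 0.0559, with only the knockouts fitted.

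The number of all genes called was unstable. For Trsp-RIPKO against TrspFF (382, of which 22 higher) it was 226 with median scaling, 0 without a filter, 765 with trend, 0 with only the groups compared and 0 to 502 leaving out 1 array. For Trsp-Ins1KO against TrspFF (413, of which 55 higher) it was 25 without a filter, 1228 with trend, 0 with only the groups compared and 0 to 518 leaving out 1 array. For Trsp-RIPKO against Trsp-Ins1KO (4) it was 1 with normexp, 1 without a filter, 2 with the filter on all 6 arrays, 1 with trend, 316 with only the groups compared and 0 to 316 leaving out 1 array. For both knockouts against TrspFF (855, of which 129 higher) it was 183 without a filter, 1692 with trend and 0 to 144 leaving out 1 array. Leaving out any of the 6 arrays lowered at least 1 of these counts to 28 or fewer. With normexp, 70 of 423 genes were higher in Trsp-RIPKO against TrspFF, 181 of 578 in Trsp-Ins1KO against TrspFF and 415 of 1190 in both knockouts against TrspFF, and with median scaling 150 of 587 in the last comparison. With a replicate block the counts were 0, 0, 0 and 120 in this order. Same-numbered arrays did not deviate together (r of -0.02, -0.03 and 0.09). The labels do not say whether the numbers pair the arrays. The causes of these changes were not tested. Fits of fewer arrays have fewer degrees of freedom, and the part of that in the counts was not tested either. The slide could not enter as a block, since it coincides with TrspFF against the knockouts. With 2 arrays per group, their number limits the precision.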
